A study of Mus musculus with 16 samples.

Results

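The 10 transcription factors Cdx1, Cdx2, Hnf4a, Hnf4g, Gata4, Gata6, Klf4, Klf5, Isx and Elf3, which set or keep the identity of absorptive intestinal cells, were read out in RNA of the intestinal mucosa of Slfn3KO and WT mice. They were taken by symbol from the deposited gene counts. All 10 were found among 46078 genes, and all 10 passed the filter on low counts that left 14822 genes for testing. The 16 libraries came from C57Bl/6 mice in 4 groups of 4, labelled female Slfn3KO, female WT, male Slfn3KO and male WT. The Slfn3KO mice carried a knockout of Slfn3 and the WT mice were littermates, so that strain and mucosa were common to all groups. The labels give an age of 8 weeks, the study's methods give an older age, and those methods place the mucosa in the ileum.

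Counts per library summed to between 20823279 and 30813117, and levels are given as CPM, the count of a gene scaled to a common library total. TMM factors corrected those totals on the premise that most genes do not differ, and 3 counts corresponded to 0.0974 to 0.144 CPM. Slfn3 itself was at 0 to 0.080 CPM in the Slfn3KO libraries and at 0 to 0.646 CPM in the WT libraries, so the genotypes overlapped and the level checked the labels only weakly. The libraries labelled female WT 3 and 4 held 42.0 and 49.7 CPM of the Y-linked Ddx3y and at most 0.124 CPM of Xist. The libraries labelled male WT 3 and 4 held 437 and 401 CPM of Xist and at most 0.042 CPM of Ddx3y. These levels go against the labelled sex of these 4 libraries, and by these genes each WT group held libraries of both sexes. Sexes are still named as labelled, and the labelled sex was the covariate of the pooled and slope fits. The values within a sex for Gata4, Klf4, Gata6, Cdx2 and Klf5 and the called slopes are also given without these 4 libraries. Epithelial markers were abundant in every library, with 8 of 8 detected and a summed level of 15490 to 24722 CPM. The ileal bile acid binding protein Fabp6 was at 1799 to 15725 CPM. Stomach and pancreatic acinar markers summed to at most 0.296 and 0.204 CPM, and Gkn1, Gkn2 and Cela3b were at 0 in all libraries.

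In the small intestine, stem cells in the crypts give rise to enterocytes that mature as they move up the villus, and the genes they use differ along the bowel. Cdx1 and Cdx2 are homeobox factors that hold intestinal identity, and the nuclear receptors Hnf4a and Hnf4g drive the enterocyte programme together. Gata4 marks the upper small intestine and fades towards the terminal ileum, whereas Gata6 is found along the whole small intestine. Klf4 belongs to differentiated cells and Klf5 to the proliferating crypt, Isx is a homeobox factor that holds back carotene uptake and cleavage, and Elf3 is an epithelial ETS factor. Slc2a2, the basolateral glucose transporter GLUT2, is strongest in the upper small intestine, and its level was used here as a measure of bowel position.

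Per kilobase of exon, Hnf4a had the highest mean level of the 10, at 247 ± 28.0 CPM per kilobase (SD, n = 16), followed by Elf3 at 188 ± 25.7. Klf4 at 130, Cdx2 at 123, Isx at 92.3, Cdx1 at 88.9, Hnf4g at 88.4 and Klf5 at 70.7 CPM per kilobase formed the middle of the order. The GATA factors were lowest, with Gata6 at 18.8 ± 4.33 and Gata4 at 12.5 ± 10.9 CPM per kilobase. Klf5 was above Gata6 in all 16 libraries without overlap of their ranges, and every other pair of neighbours in this order overlapped. Cdx1 and Hnf4g could not be ranked, since Cdx1 was the higher of the pair in 7 libraries. Klf4 was above Cdx2 in 9 libraries of 16, and Isx was above Cdx1 in 9.

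**Figure D1:**
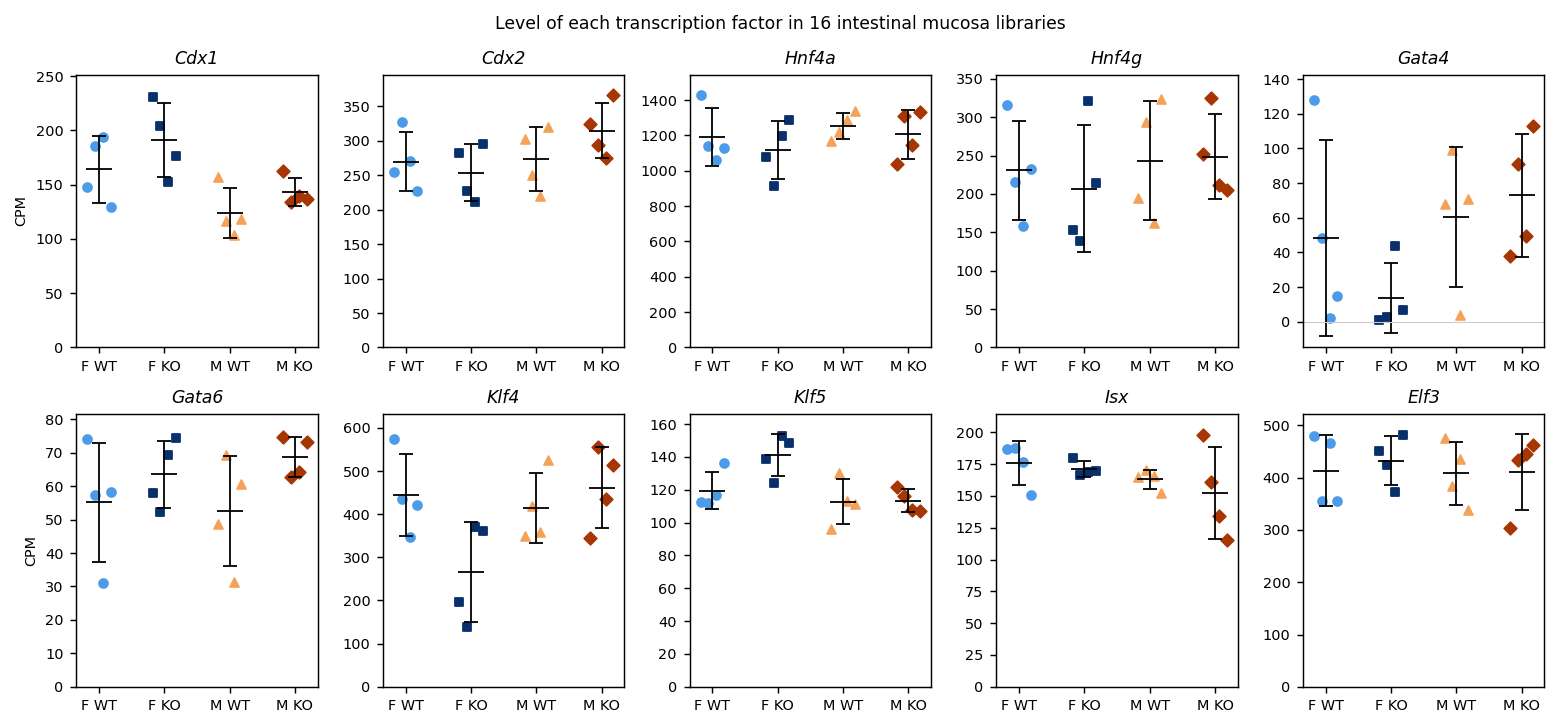
CPM of each of the 10 transcription factors (vertical axis, linear, from 0 or below) in the 16 libraries by labelled group, where F and M are female and male and KO is Slfn3KO. Points are libraries, and black bars are the mean and 1 SD of 4 libraries; Gata4 spans 1.16 to 128 CPM, and the WT and KO points of each sex overlap in every panel.

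Gata4 varied most between the libraries. Gata4 ranged from 1.16 CPM in female Slfn3KO 1 to 128 CPM in female WT 1, a 110-fold range. The SD of its log2 CPM was 2.27, at percentile 99.4 of all tested genes, for which the median SD was 0.32. The SD was 0.53 for Klf4, 0.42 for Hnf4g and 0.40 for Gata6. It was below the median of all genes for Cdx1, at percentile 49.3, for Cdx2 at 0.23, Elf3 at 0.21, Isx at 0.19, Klf5 at 0.18 and Hnf4a at 0.17. Hnf4a, the steadiest, had a lowest level of 911, a median of 1183 and a highest of 1431 CPM.

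To ask whether loss of Slfn3 went with a change of these factors, Slfn3KO was compared with WT over both sexes, within each sex and as a difference between the sexes. In the pooled comparison 0 of 10 factors passed an adjusted p under 0.05 with a 1.5-fold change by the edgeR quasi-likelihood test, where 0% of all genes did. None of the 10 passed at an unadjusted p under 0.05 either, against 11.9% of all genes. DESeq2 called 0 of 10, where it called 0.371% of all genes. The factors were split evenly in direction, 5 above and 5 below 0, with a median log2 fold change of -0.01 beside -0.00365 over all tested genes.

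Gata4 had the widest pooled difference and the widest error. Its level was 1.16, 2.62, 43.7 and 6.82 CPM in female Slfn3KO 1 to 4, and 128, 48.5, 2.07 and 15.1 CPM in female WT 1 to 4. In the males it was 38.0, 91.0, 49.3 and 113 CPM in Slfn3KO 1 to 4, and 67.7, 99.2, 4.01 and 71.0 CPM in WT 1 to 4. Of the 4 female Slfn3KO libraries 3 were low, but libraries of 2.07 and 4.01 CPM also stood among the WT of each sex, and the genotypes overlapped. The mean was 43.2 ± 41.4 CPM in Slfn3KO and 54.4 ± 45.8 CPM in WT (SD, n = 8). The pooled log2 fold change was -0.77 with a standard error of 0.86 (edgeR, adjusted p = 0.729), and 2 standard errors on each side spanned -2.49 to 0.96. It was -1.82 with an error of 1.30 in females (adjusted p = 0.435) and 0.28 with an error of 0.75 in males (adjusted p = 0.964). The difference between the sexes was -2.10 with an error of 1.60 (adjusted p = 0.578). Single libraries moved these values. The female value was -3.77 without female Slfn3KO 3 (adjusted p = 0.236) and -0.68 without female WT 1 (adjusted p = 0.822), and the pooled value was -1.35 and -0.17 without these same libraries (adjusted p = 0.622 and 0.965). Without the 4 WT libraries numbered 3 and 4 the pooled value was -1.61 (adjusted p = 0.761), the female value -2.69 (adjusted p = 0.228), the male value -0.20 (adjusted p = 0.942) and the sex difference -2.48 (adjusted p = 0.315). With the log2 CPM of Slc2a2 as a covariate the pooled value turned to 0.74 (adjusted p = 0.479). Slc2a2 was low in all female Slfn3KO libraries, so this covariate and genotype cannot be fully told apart. With errors of this size even large changes of Gata4 could go undetected in these libraries. The female value of -3.77 without female Slfn3KO 3 did not pass.

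Klf4, a factor of post-mitotic epithelium, was 196, 138, 369 and 361 CPM in female Slfn3KO 1 to 4 and 575, 434, 348 and 421 CPM in female WT 1 to 4. In male Slfn3KO 1 to 4 it was 344, 555, 434 and 515 CPM, and in male WT 1 to 4 it was 351, 419, 358 and 527 CPM. Female Slfn3KO 1 and 2 were the lowest of all libraries, and the other female Slfn3KO libraries were within the range of WT. Among females 0 of 10 factors passed the adjusted test, where 0% of all genes did, and 0 passed at an unadjusted p, against 17.1% of all genes. DESeq2 also called 0 of 10 in females, where it called 3.6% of all genes. The female log2 fold change of Klf4 was -0.74 with a standard error of 0.33 (edgeR, adjusted p = 0.295), and the male value was 0.16 with an error of 0.18 (adjusted p = 0.925). The difference of female minus male effects was -0.90 with an error of 0.39 (unadjusted p = 0.0382, adjusted p = 0.441). Without the 4 WT libraries numbered 3 and 4 the female, male and difference values of Klf4 were -0.92, 0.27 and -1.18 (edgeR, adjusted p = 0.228, 0.794 and 0.178). Klf4 was the 1 factor of 10 under an unadjusted p of 0.05 for that difference, where 11.1% of all genes were. At the adjusted threshold 0 of 10 factors differed between the sexes by edgeR and 0 by DESeq2. Over all genes 0% did by edgeR and 0.162% by DESeq2. Without these 4 WT libraries edgeR called 0 of 10 factors for the sex difference, where 2.38% of all genes were called.

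In males 0 of 10 factors passed the adjusted edgeR test, where 0% of all genes did. At an unadjusted p 0 of 10 passed, against 3.84% of all genes, and DESeq2 called 0, where it called 0.0991% of all genes. Gata6 had the largest male difference of the 10. Its level was 74.8, 62.8, 64.3 and 73.2 CPM in male Slfn3KO 1 to 4 and 48.8, 69.4, 31.3 and 60.8 CPM in male WT 1 to 4. The male log2 fold change was 0.39 with an error of 0.21 (adjusted p = 0.925), and the pooled value was 0.30 with an error of 0.17 (adjusted p = 0.514). The lowest Gata6 levels of all were in male WT 3 and in female WT 3, at 31.0 CPM. Without the 4 WT libraries numbered 3 and 4 the female value of Gata6 turned from 0.20 to -0.06 and the male value was 0.22 (adjusted p = 0.870 and 0.786).

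The homeobox factors were close between genotypes. Cdx2 had a mean of 284 ± 49.6 CPM in Slfn3KO and 272 ± 41.1 CPM in WT (SD, n = 8). Its level was 282, 227, 212 and 295 CPM in female Slfn3KO 1 to 4 and 255, 327, 271 and 227 CPM in female WT 1 to 4. In the males it was 325, 294, 275 and 366 CPM in Slfn3KO 1 to 4 and 302, 251, 220 and 321 CPM in WT 1 to 4. The groups overlapped in both sexes. The log2 fold change of Cdx2 was 0.06 pooled, -0.09 in females and 0.21 in males, with errors of 0.11, 0.16 and 0.14 (adjusted p = 0.843, 0.752 and 0.925). In females 2 standard errors on each side spanned -0.42 to 0.23. The difference between the sexes for Cdx2 was -0.29 with an error of 0.22 (adjusted p = 0.572). Without the 4 WT libraries numbered 3 and 4 the female, male and difference values of Cdx2 were -0.21, 0.20 and -0.39 (adjusted p = 0.533, 0.796 and 0.352). Cdx1 was the factor nearest to the threshold in the pooled comparison, with 0.21 and an error of 0.11 (adjusted p = 0.471). Cdx1 had a lowest, median and highest level of 134, 157 and 231 CPM in Slfn3KO and of 104, 139 and 194 CPM in WT. Isx was -0.07 with an error of 0.09 (adjusted p = 0.769), and its levels reached from 115 CPM in male Slfn3KO 4 to 198 CPM in male Slfn3KO 1, so that 1 group held both ends.

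The nuclear receptors and the remaining factors did not pass in the pooled comparison. Hnf4a had a log2 fold change of -0.07, with 2 standard errors reaching from -0.26 to 0.12 (adjusted p = 0.764). Hnf4g was -0.06, with a span of -0.47 to 0.34 (adjusted p = 0.911). Hnf4g had lowest, median and highest levels of 139, 213 and 325 CPM in Slfn3KO and of 159, 224 and 323 CPM in WT, nearly the same span. Klf5, a factor of proliferating crypt cells, was 0.12, with a span of -0.03 to 0.28 (adjusted p = 0.546). In females Klf5 was at 139, 124, 153 and 149 CPM in Slfn3KO 1 to 4 and at 113, 112, 117 and 136 CPM in WT 1 to 4. The highest female WT library was above the lowest female Slfn3KO library, and the female log2 fold change was 0.24 with an error of 0.12 (adjusted p = 0.310). Without female WT 3 and 4 it was 0.32 (adjusted p = 0.219). Elf3 was 0.04, with a span of -0.18 to 0.26 (adjusted p = 0.903), and its range was 304 to 483 CPM in Slfn3KO and 338 to 479 CPM in WT.

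**Figure D2:**
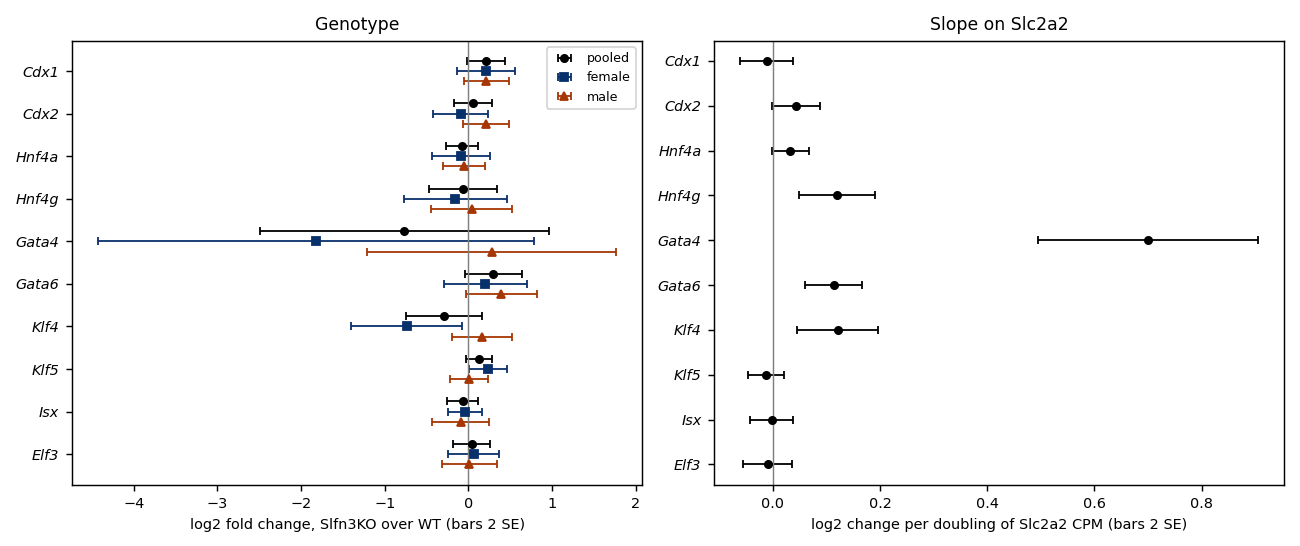
Log2 fold change of Slfn3KO over WT for the 10 factors (left, both sexes in black, females in blue, males in red) and log2 change per doubling of Slc2a2 CPM (right), each with bars of 2 standard errors from edgeR. On the left Gata4 has the widest bars and no factor passes the adjusted test; on the right Gata4 stands at 0.70 and Hnf4g, Gata6 and Klf4 at 0.11 to 0.12.

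Slc2a2, the measure of bowel position, ran from 0.516 CPM in female Slfn3KO 1 to 195 CPM in male Slfn3KO 4, a 377-fold range. Its lowest, median and highest levels were 0.516, 7.24 and 195 CPM in Slfn3KO and 1.12, 47.8 and 151 CPM in WT. All 4 female Slfn3KO libraries were at or below 4.31 CPM, as were female WT 3, female WT 4 and male WT 3. The paper reports lower Glut2 (Slc2a2) mRNA by qPCR in Slfn3KO females than in WT. For low Slc2a2 in the female Slfn3KO libraries, bowel position and an effect of genotype on Slc2a2 itself therefore cannot be told apart. Over the 16 libraries, with sex and genotype in the model, 4 of 10 factors changed with Slc2a2 at an adjusted p under 0.05, where 30.7% of all tested genes did. All 4 rose with Slc2a2, where 15.8% of all genes rose. The share of 4 in 10 was near that of genes at large, and the size of the slope set Gata4 apart from the other 9 factors. Fewer cells of a type and less RNA per cell cannot be told apart in RNA of whole mucosa.

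Gata4 rose by 0.70 log2 units per doubling of Slc2a2, with a standard error of 0.10 (edgeR, adjusted p = 0.000306). In the order of Slc2a2 the first 6 libraries had 1.16 to 15.1 CPM of Gata4 and the remaining 10 had 38.0 to 128 CPM. Of those first 6, which had at most 2.69 CPM of Slc2a2, 3 were Slfn3KO and 3 were WT. Pearson's r of the log2 values was 0.92 and Spearman's rho 0.94 (n = 16), each with a permutation p of 1e-05, the smallest that 100000 permutations can give, and 0.00014 after adjustment over 14 relations. Without the 2 libraries farthest from the median of Slc2a2 r was 0.89. Within Slfn3KO r was 0.91 (n = 8, exact permutation p = 0.00124) and within WT it was 0.95 (n = 8, exact permutation p = 0.00067). The Slfn3KO females had at most 4.31 CPM of Slc2a2 and the Slfn3KO males at least 10.2 CPM. Slc2a2 level and sex therefore cannot be told apart in the r within Slfn3KO, which had no sex term. The slope stayed between 0.64 and 0.75 when each library was left out in turn, and was 0.63 without the 4 WT libraries numbered 3 and 4 (adjusted p = 0.0127). In the Slfn3KO libraries alone the edgeR slope was 0.76 (adjusted p = 0.198, where 0.184% of all genes passed) and in the WT libraries alone 0.68 (adjusted p = 0.0156, where 10.5% passed).

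**Figure D3:**
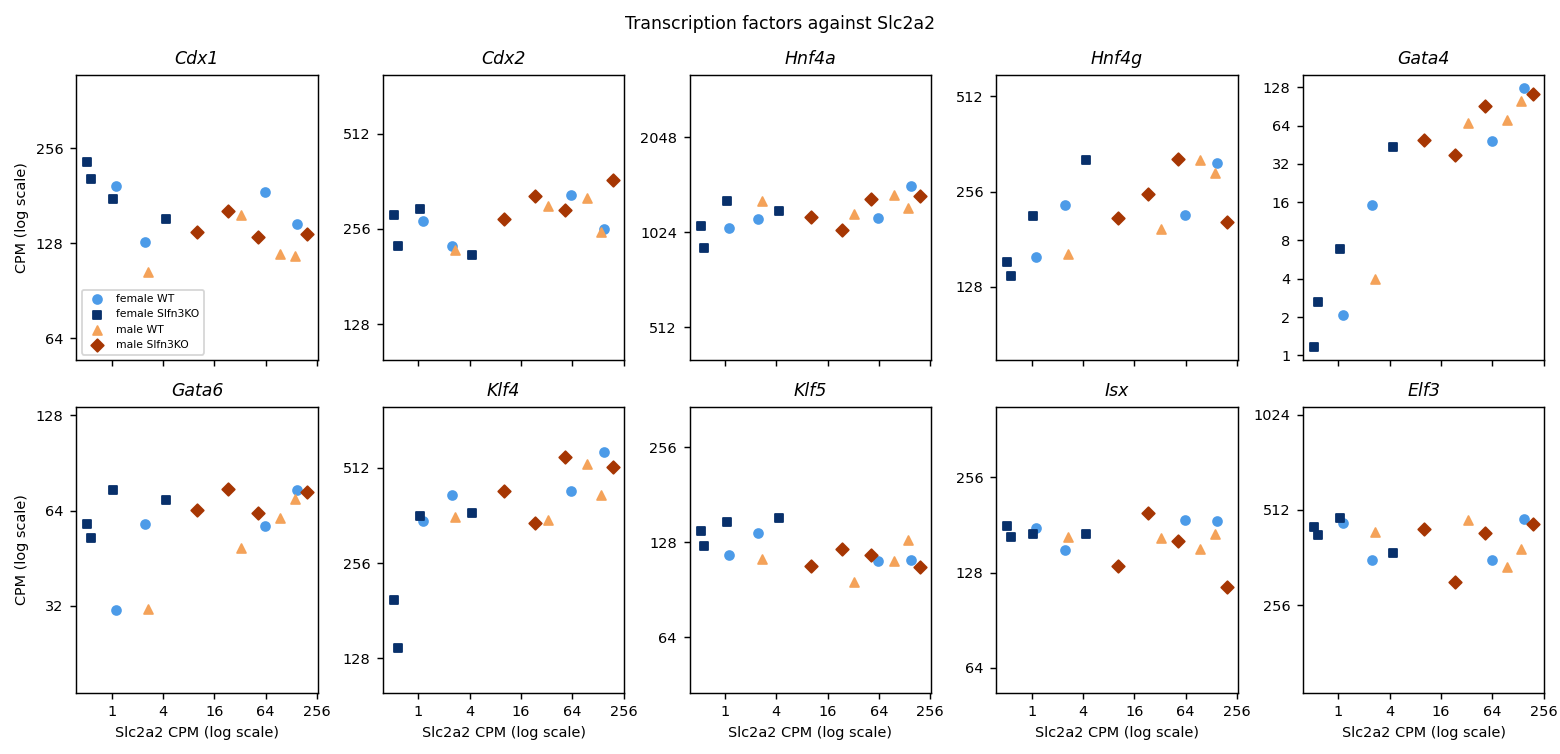
CPM of each factor (vertical, log scale) against CPM of Slc2a2 (horizontal, log scale) in the 16 libraries, with symbols for the 4 labelled groups. Every panel but Gata4 spans 3 doublings on the vertical axis; Gata4 climbs from 1.16 to 128 CPM along the axis, while Isx and Elf3 lie flat.

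The other 3 factors that rose did so by far smaller steps. Hnf4g rose by 0.12 per doubling with an error of 0.04 (edgeR, adjusted p = 0.0194), Klf4 by 0.12 with an error of 0.04 (adjusted p = 0.0258) and Gata6 by 0.11 with an error of 0.03 (adjusted p = 0.00579). These calls were less steady than that of Gata4. Leaving out female WT 1 took both Hnf4g (adjusted p = 0.0896) and Klf4 (adjusted p = 0.123) past the threshold, and so did leaving out male WT 3 (adjusted p = 0.0724 and 0.0557). The share of all genes called fell as well, from 30.7% to 12.8% without female WT 1 and to 20.6% without male WT 3. Leaving out female Slfn3KO 1 or male Slfn3KO 4 took Klf4 alone past the threshold (adjusted p = 0.0586 and 0.0509), where 25.5% and 30.6% of all genes were called. Without the 4 WT libraries numbered 3 and 4, 2 of 10 factors were called, Gata4 and Klf4, where 26.8% of all genes were, and Klf4 then had a slope of 0.21 (adjusted p = 0.0196). Hnf4g and Gata6 were not called there (adjusted p = 0.0960 and 0.103). Under the replicate block Hnf4g was not called (slope 0.14, adjusted p = 0.0656), where 12.1% of all genes were. When libraries were scaled on epithelial markers in place of all genes, Hnf4g and Klf4 each had a slope of 0.08 and were not called (adjusted p = 0.104 and 0.109), where 42.8% of all genes were. Under that scaling Klf5 and Elf3 each fell by 0.06 per doubling (adjusted p = 0.0214 and 0.0266).

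Cdx2 had a slope of 0.04 (error 0.02, adjusted p = 0.149) and Hnf4a of 0.03 (error 0.02, adjusted p = 0.165). Cdx1, Klf5 and Elf3 each had a slope of -0.01 (adjusted p = 0.750, 0.603 and 0.771), and Isx had a slope of -0.00191 (adjusted p = 0.951). For Isx 2 standard errors spanned -0.04 to 0.04, so that a step as large as that of Gata4 lay outside the interval. As correlations, Klf4 had r = 0.75 and rho = 0.76 with Slc2a2 (permutation p = 7e-05 and 0.00108, adjusted 0.00049 and 0.00756; r = 0.69 without 2 libraries). Hnf4g had r = 0.66 and rho = 0.59 (adjusted permutation p = 0.0291 and 0.0538; r = 0.51 without 2). Hnf4a had r = 0.60 and rho = 0.65 (adjusted permutation p = 0.0373 and 0.0375; r = 0.42 without 2), and on CPM without TMM factors its r was -0.01. The other 6 factors had r between -0.54 for Klf5 and 0.51 for Cdx2, and none passed after adjustment. Cdx1 had r = -0.51 over all libraries and -0.25 without female Slfn3KO 1 and 2, which were both low in Slc2a2 and high in Cdx1.

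Among themselves, Hnf4a and Hnf4g had r = 0.61 and rho = 0.55 over the 16 libraries (permutation p = 0.0112 and 0.0287, adjusted 0.0373 and 0.0670; r = 0.44 without 2 libraries). On CPM without TMM factors their r was 0.06. Gata4 and Gata6 had r = 0.59 and rho = 0.49 (permutation p = 0.0160 and 0.0551, adjusted 0.0373 and 0.0964). Without female WT 3 and male WT 3, the libraries lowest in Gata6, r was 0.33. Within Slfn3KO, which holds neither, r was 0.58 (n = 8, exact permutation p = 0.132), and within WT it was 0.91 (n = 8, exact permutation p = 0.00565). Cdx1 and Cdx2 had r = 0.14 (adjusted permutation p = 0.603), and Klf4 and Klf5 had r = -0.32 (adjusted permutation p = 0.291). These 4 pairs were in the same family of 14 relations as those with Slc2a2.

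The genes whose log2 CPM followed a factor most closely over the 16 libraries were listed for each, as a description of shared pattern. For Gata4 they were Enpp7, an intestinal sphingomyelinase, Plb1, a brush border phospholipase, and Fam151a, each with r = 0.99. Enpp7 ran from 6.58 to 1460 CPM and Plb1 from 10.8 to 2843 CPM. Lct, the lactase gene, was at rank 4 among 14821 genes with r = 0.98, and Slc2a2 itself ranked 93. For Klf4 the nearest were Mxd1, Crot and Bcar3 with r = 0.96 each, and Mxd1, which encodes a partner of Max linked to differentiation, ran from 413 to 1810 CPM. Hnf4a was nearest to Mapk1ip1l, Cul1 and Selenoi with r = 0.95 each, and Hnf4g to Sos1, Abhd18 and Gsk3b with r of 0.93 to 0.95. For Cdx1 the nearest were Eif2b5, Mrps6 and Gfer with r of 0.87 to 0.92, and for Cdx2 they were Enc1, Sat2 and Commd6 with r of 0.79 to 0.84. Gata6 was near to Tfdp2 with r = 0.88 and Gm29201 with r = 0.87, and Klf5 to A930004J17Rik, Prpf4b and Stag1 with r of 0.81 to 0.85. Elf3 was nearest to Acot7, 4930415O20Rik and Ceacam10 with r of 0.85 to 0.90, and Isx to Vav3, 5430400D12Rik and E230013L22Rik with r of 0.72 to 0.75. Each was picked for the highest r among 14821 genes over 16 libraries, and that choice alone raises r. Gm29201, 5430400D12Rik, 4930415O20Rik and Vav3 were near the floor, with lowest levels of 0, 0.238, 0.433 and 0.665 CPM.

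Genes known to respond to these factors were read from a list of 15. In the pooled genotype comparison 0 of 15 were called by edgeR, where 0% of all genes were. At an unadjusted p under 0.05 there were 0 of 15, against 11.9% of all genes. All but Bco1 had values below 0, where 7514 of 14822 tested genes did, with a median of -0.24 beside -0.00365 over all tested genes. In females 13 of the 15 were below 0, where 7184 of 14064 genes were, with a median of -0.36 beside -0.00983 over all genes. At an unadjusted edgeR p under 0.05 there were 3 of 15 in females, all below 0, against 17.1% of all genes. After adjustment 0 were called in females, where 0% of all genes were. The female Slfn3KO libraries were all at or below 4.31 CPM of Slc2a2, and the part of bowel position in these values was not tested. In males 7 were below 0 and 8 above, with a median of 0.02 beside -0.00165. Along Slc2a2, 8 of 15 rose and 2 fell. Over all genes 15.8% rose and 14.9% fell, so the 2 of 15 that fell were near the share of genes at large. Of the 5 genes that Gata4 is known to activate or hold down, 3 were called, where 30.7% of all genes were. Lct rose by 1.37 per doubling with an error of 0.16 (adjusted p = 5.42e-05) and ran from 0.414 CPM in female WT 3 to 1376 CPM in female WT 1. Fabp1, a fatty acid binding protein of the upper intestine, rose by 0.69 with an error of 0.07 (adjusted p = 2.09e-05). Slc10a2, the ileal bile acid uptake transporter, fell by 0.30 with an error of 0.07 (adjusted p = 0.00580) and ran from 469 CPM in male WT 3 to 51.7 CPM in female WT 1. Fabp6 had a slope of -0.09 with an error of 0.10 (adjusted p = 0.496), and Slc51a, the basolateral bile acid exporter, of -0.03 (adjusted p = 0.378).

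**Figure D4:**
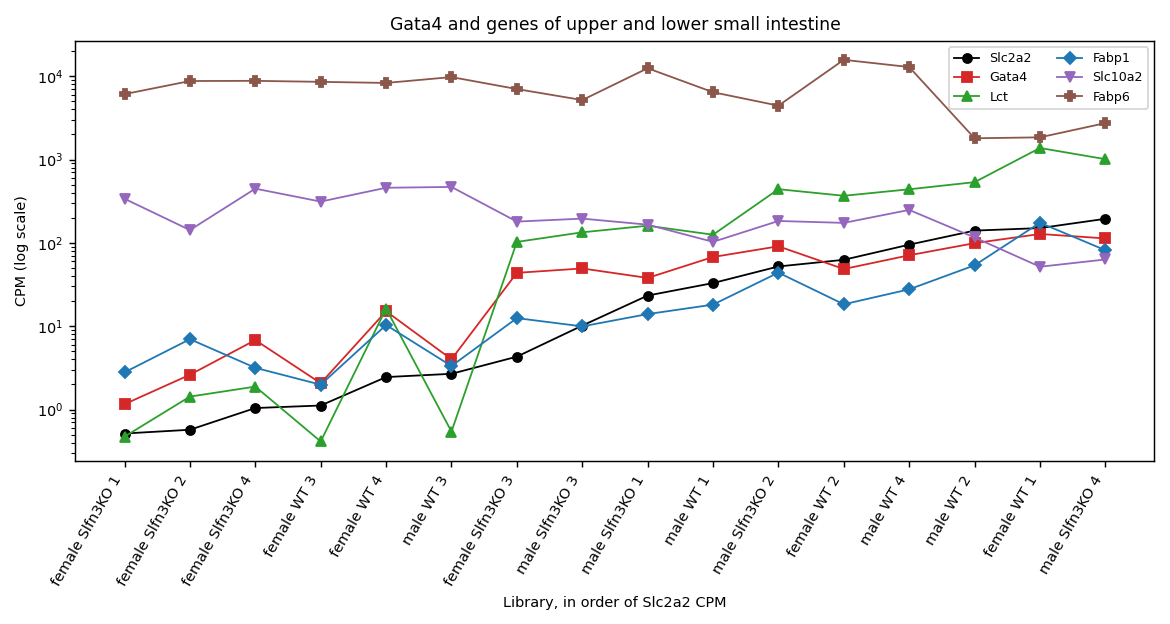
CPM (log scale) of Slc2a2, Gata4, Lct, Fabp1, Slc10a2 and Fabp6 in the 16 libraries, which are set from left to right in order of Slc2a2. Gata4 and Lct are low in the first 6 libraries, with Lct at 0.414 CPM in female WT 3, and high in the rest, while Slc10a2 is lowest, at 51.7 CPM, in female WT 1 near the right end.

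All 4 of the lipoprotein genes that Hnf4 receptors control rose with Slc2a2, where 15.8% of all genes rose. Their slopes were 0.46 for Apoc3, 0.42 for Apoa4, 0.18 for Mttp and 0.13 for Apob (edgeR, adjusted p = 1.08e-05, 0.00332, 0.00207 and 0.0398). Of the Cdx-responsive genes, Sis, the sucrase-isomaltase gene, rose by 0.16 (adjusted p = 0.00860), whereas Cdh17 and Mep1a had slopes of 0.05 each (adjusted p = 0.106 and 0.297). Alpi, the alkaline phosphatase that Klf4 acts on, rose by 0.20 (adjusted p = 0.00282). Of the genes that Isx holds back, Scarb1, a scavenger receptor, fell by 0.17 (adjusted p = 0.00629), and Bco1, which cleaves carotene, had a slope of -0.14 (adjusted p = 0.180). Scarb1 was low, at 1.02 to 3.50 CPM and 21 to 103 counts per library.

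For Gata4 the deposited table gives ENSMUSG00000021944, at chr14:63198922-63271692 of mm10 on the minus strand in GENCODE M21. Sequences were drawn from RefSeq for genes along its gradient, since GATA factors bind DNA at the letters GATA. The stretches are the 250 bases before the RefSeq start in GRCm38.p6, read 5′ to 3′ on the strand of the gene, with GATAA and its reverse complement TTATC in capitals. They lie at chr1:128328319-128328568 on the minus strand, chr11:118987931-118988180 on the plus strand, chr3:28697653-28697902 on the plus strand and chr8:5105288-5105537 on the minus strand. Lct and Enpp7 are shown as the steepest target and the closest pattern, Slc2a2 as the measure of position and Slc10a2 as a gene that fell.
Lct: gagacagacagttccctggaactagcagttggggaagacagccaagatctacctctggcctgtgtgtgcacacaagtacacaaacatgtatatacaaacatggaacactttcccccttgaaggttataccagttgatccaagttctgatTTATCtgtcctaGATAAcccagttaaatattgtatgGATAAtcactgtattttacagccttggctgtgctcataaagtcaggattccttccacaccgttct
Enpp7: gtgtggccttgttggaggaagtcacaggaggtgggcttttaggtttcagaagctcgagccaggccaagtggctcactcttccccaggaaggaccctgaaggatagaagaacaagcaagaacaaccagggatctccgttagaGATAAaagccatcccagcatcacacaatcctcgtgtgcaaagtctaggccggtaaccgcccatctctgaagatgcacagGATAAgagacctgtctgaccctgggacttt
Slc2a2: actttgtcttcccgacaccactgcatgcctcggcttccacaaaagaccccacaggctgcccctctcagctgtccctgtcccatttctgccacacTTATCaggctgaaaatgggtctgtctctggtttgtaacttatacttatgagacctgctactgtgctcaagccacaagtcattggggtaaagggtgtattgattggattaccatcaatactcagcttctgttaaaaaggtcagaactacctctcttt
Slc10a2: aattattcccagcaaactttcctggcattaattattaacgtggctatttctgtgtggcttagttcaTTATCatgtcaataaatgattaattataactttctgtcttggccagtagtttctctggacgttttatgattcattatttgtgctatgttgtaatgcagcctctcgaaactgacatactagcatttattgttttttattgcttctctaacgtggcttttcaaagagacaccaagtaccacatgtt
GATAA on either strand was present 3 times in the Lct stretch, 2 times in that of Enpp7 and once each in those of Slc2a2 and Slc10a2. The stretch of Fabp1, not shown, held 1 match. TTTATG and CAAAGT were searched as well and are not marked. Of 32851 RefSeq stretches of the same length 22.6% held it at least once, and 234, or 0.712%, held it 3 times or more. Lct and Enpp7 were picked for their levels in these same data, so the shares are no test of a link to Gata4. A match is a description of letters and not of binding. Of the 10 factors themselves, 5 had a RefSeq stretch, namely Cdx2, Hnf4a with 2 starts, Klf4, Isx and Elf3, and 1 start of Hnf4a held GATAA.

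Reads of the related factors could be told apart by sequence. Of the stretches of 50 bases in the transcripts, the read length used, 0 were shared with another gene for 8 of the 10 factors, and 0.263% were shared with Gm48640 for Klf4 and 0.0777% with Gm6007 for Klf5. The factors were Cdx2 at chr5:147300805-147307270, Hnf4a at chr2:163506808-163572910, Hnf4g at chr3:3508030-3658052, Klf4 at chr4:55527143-55532466, Klf5 at chr14:99298691-99313405, Isx at chr8:74873173-74893506 and Elf3 at chr1:135253575-135258568 of mm10. Cdx1 and Gata6 lie on chromosome 18.

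Other intestinal transcription factors were read from a list of 30, of which 28 were tested. In the pooled genotype comparison 0 of 28 were called, where 0% of all genes were, and 5 had an unadjusted p under 0.05. Over all genes 11.9% had such an unadjusted p. Along Slc2a2, 8 of 28 rose and 2 fell at the adjusted threshold, where 15.8% of all genes rose and 14.9% fell. The largest rises were in Nr1i3, the xenobiotic receptor CAR, at 0.46, in Creb3l3, an activator of apolipoprotein genes, at 0.35 and in Onecut2, a homeobox factor of the upper intestine, at 0.13 (edgeR, adjusted p = 1.22e-05, 0.000301 and 0.0474). Onecut2 was near the floor, at 0.327 to 1.26 CPM and 8 to 25 counts per library. Esrra rose by 0.11 and Maf by 0.10 (adjusted p = 0.000128 and 0.0431). Nr1h4, the bile acid receptor FXR, fell by 0.18 and Foxa1 by 0.06 (adjusted p = 3.31e-06 and 0.0285). Gata4 had a larger slope than any of these.

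Marker levels moved along the same axis. The summed level of 8 proximal small intestine markers ran from 2159 to 21445 CPM and had a Spearman rho of 0.94 with Slc2a2 and 0.95 with Gata4 over the 16 libraries. That list shares Lct, Apoa4, Apoc3 and Fabp1 with the genes above. Apoa1 was its most abundant marker, at 1923 to 15089 CPM, and weighs most in the sum. Lct, Apoa4, Apoa1, Apoc3, Fabp1 and Rbp2 rose with Slc2a2. Slc40a1 and Cybrd1 of the same list fell, with slopes of -0.44 and -0.18 (edgeR, adjusted p = 0.00228 and 0.0104). The 6 distal ileum markers summed to 3952 to 19372 CPM, with a rho of -0.34 with Slc2a2. The 8 epithelial markers had a rho of 0.77, and 4 villus tip markers, at 53.6 to 2551 CPM, had 0.78. The 7 crypt markers, at 187 to 676 CPM, had a rho of -0.57, and the 7 muscle and stroma markers, at 8.64 to 96.8 CPM, had -0.58. Female Slfn3KO 2 had the lowest epithelial and villus tip sums, the highest crypt and muscle sums, and the lowest Klf4 and Hnf4a levels. Follicular B cell markers ranged from 1.91 to 790 CPM with a rho of -0.12. The part of villus, crypt and stromal content in the slopes of the factors was not tested. With the distal ileum list, its sign turned, in place of Slc2a2, 0 of 10 factors were called, where 0.607% of all genes were, and Gata4 had a slope of 1.76 (adjusted p = 0.399). With the proximal list in place of Slc2a2 the count was 4 of 10, where 33.6% of all genes were called, and Gata4 had a slope of 1.92 (adjusted p = 1.55e-05). In these fits the mean log2 CPM of the listed genes, not their sum, stood in for Slc2a2. Their slopes are therefore not on the scale of a slope per doubling of Slc2a2.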

How the data were processed

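RNA of intestinal mucosa was sequenced by the authors from TruSeq Stranded libraries as single reads, trimmed with cutadapt and aligned with STAR to mm10. The deposited values are raw counts per gene, not normalized, with the exon length in bases as a further column of another kind. The file header names featureCounts with reverse-stranded counting, the submitters' processing notes give featureCounts 1.4.6 and DESeq2 1.22.2, and the study's methods name HTSeq as the counter. GENCODE M21 gave a symbol for 45143 of 46078 identifiers. Totals per library were 20823279 to 30813117, and a floor of 3 counts covers only the error of counting.

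Groups followed the labelled sex and genotype. Counts were fitted with edgeR 4.0.16 in R 4.3.3 (TMM factors, filterByExpr, robust quasi-likelihood F test), with Benjamini-Hochberg adjustment over all genes tested. A call needed an adjusted p under 0.05 and, for genotype, a 1.5-fold change. The pooled fit had sex as a covariate, the fits within a sex had none, and the difference between sexes was female minus male. The slope was fitted on log2 CPM of Slc2a2 (prior count 2) with sex and genotype. Standard errors are the absolute log2 value divided by the square root of F. Correlations used log2 CPM and two-sided permutation tests with 100000 permutations (scipy 1.17.1), exact within a genotype. The pooled, within-sex and sex difference comparisons share libraries. The scripts were tested on simulated data.

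Replicate numbers in the labels were checked for pairing. Deviations of same-numbered libraries from their group means correlated at 0.138 to 0.518 in all 4 male pairs and at -0.362 to 0.143 in the female pairs, so only the male numbers met the rule of every pair above 0.1. Pairs followed the labelled sex, which Xist and Ddx3y went against in the WT libraries numbered 3 and 4 of both sexes. No libraries were near duplicates. Results were recomputed with RLE factors, with DESeq2 1.42.0, with other filters and thresholds, the replicate block, other covariates, scaling on epithelial markers, lists in place of Slc2a2, CPM without TMM factors and each library left out. Fits without the 4 WT libraries numbered 3 and 4, without the 2 libraries farthest in Slc2a2 and within 1 genotype were added after seeing the data. The factors, gene lists, markers and tests were chosen with earlier results of these data known. Genes named are the 10 factors, Slc2a2, 15 responsive genes, the called members of a list of 30 other factors (at most 5 in each direction), the 3 closest patterns per factor (1 of them is not reported here), marker lists, and Slfn3, Xist and Ddx3y as checks of the labels; Gm48640, Gm6007 and single markers were named after their values were seen.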

Additional observations from a re-analysis of the deposited data

Results flagged for a closer look

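Female Slfn3KO 3 was flagged within its group for Gata4 and Slc2a2 on the linear CPM scale. Its Gata4 level was 43.7 CPM, where the other 3 female Slfn3KO libraries had 1.16 to 6.82 CPM. Its Slc2a2 level was 4.31 CPM, where those 3 had 0.516 to 1.04 CPM. In each case the gap to the nearest library, divided by the range of the group, was above Dixon's critical value of 0.829 for 4 samples. These were 2 of 44 groups tested, near the share that chance alone flags, about 1 in 20 groups. The rule was run on CPM and not on log2 CPM, the scale of the correlations. Gata4 and Slc2a2 had r = 0.92 over the 16 libraries, so the 2 flags are not independent. Without female Slfn3KO 3 the pooled log2 fold change of Gata4 was -1.35 (edgeR, adjusted p = 0.622).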

How the results depend on the processing

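The count of factors called stayed at 0 in the pooled, female and male comparisons under every alternative run, unadjusted p-values, DESeq2 and the replicate block included, and in the sex difference under all but the unadjusted p-value, which gave 1. The replicate block left the pooled Gata4 value at -0.37 and changed no call among genotype comparisons. In the slope it gave 3 factors, where 12.1% of all genes were called, and took Hnf4g past the threshold. By labelled sex, the male numbers met the pairing rule and the female numbers did not. Over all genes, where edgeR called 0 in each genotype comparison, DESeq2 called 55 pooled, 506 in females, 14 in males and 24 for the sex difference, and edgeR called 359 for the sex difference without the 4 WT libraries numbered 3 and 4 and 1 in the pooled comparison with Slc2a2 as a covariate.

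The slope on Slc2a2 gave 4 factors in the main design, 0 with the distal ileum list, 0 in the Slfn3KO libraries alone, 2 in the WT libraries alone and 2 without the 4 WT libraries numbered 3 and 4. Leaving out single libraries gave 2 to 4. The 2 came without female WT 1 and without male WT 3, where 12.8% and 20.6% of all genes were called. The count of 3 without sex and genotype terms lacked Gata6 (slope 0.05, adjusted p = 0.193). Gata4 was called in every run except the distal list and the Slfn3KO libraries alone.

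Some values changed sign. With Slc2a2 as a covariate pooled Gata4 was 0.74 and Hnf4g 0.15. Without the 4 WT libraries numbered 3 and 4, the values were pooled Cdx2 -0.012 and Elf3 -0.0092, female Gata6 -0.056, male Hnf4a 0.020, Gata4 -0.20 and Elf3 -0.059, and the sex difference of Isx -0.0024. With no filter, male Klf5 was -0.00068 and Elf3 -0.0030. The sex difference of Cdx1 was -0.023 with RLE factors and -0.023 with DESeq2, -0.0068 with a minimum of 10 counts and -0.015 with the replicate block. Slopes that turned were Isx at 0.0010 with RLE factors and 0.00093 with DESeq2, Cdx2 at -0.0026 and Hnf4a at -0.017 with epithelial scaling, and Cdx1 at 0.018, Cdx2 at -0.041 and Elf3 at 0.19 with the distal list. In Slfn3KO alone Klf5 was 0.020 and Elf3 0.0053, and in WT alone Cdx1 was 0.0047 and Isx 0.016. On CPM without TMM factors Hnf4a and Slc2a2 had r = -0.014, and Klf5 and Slc2a2 had -0.78 (adjusted permutation p = 0.00243). With 1 library left out, pooled ranges that crossed 0 were Elf3 -0.013 to 0.084 and Hnf4g -0.19 to 0.037. Female ranges were Cdx2 -0.18 to 0.012, Elf3 -0.0067 to 0.14, Hnf4a -0.18 to 0.0091 and Hnf4g -0.46 to 0.033. Male ranges were Elf3 -0.080 to 0.13, Gata4 -0.11 to 0.64, Hnf4a -0.10 to 0.0075, Hnf4g -0.12 to 0.19, Isx -0.25 to 0.024 and Klf5 -0.065 to 0.093. Sex difference ranges were Cdx1 -0.14 to 0.10, Elf3 -0.071 to 0.14, Hnf4a -0.11 to 0.061 and Isx -0.071 to 0.21, and the slope of Isx ran from -0.0099 to 0.016. The cause of these changes was not tested, apart from the smaller number of libraries in the fits within a genotype.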
